A study of Rattus norvegicus with 20 samples.

Results

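The renal organic anion and cation transporters described here are 9 genes, Slc22a6, Slc22a8, Slc22a7, Slc22a2, Slc22a12, Slc47a1, Abcc2, Abcc4 and Abcb1a. They were taken by gene symbol from a table of 34681 rows, of which 16661 had a symbol, and all 9 were among the 15954 rows that passed a filter on low values and were tested. The series concerns kidney injury after trauma in rats, measured by stranded, paired-end mRNA sequencing of frozen kidney. The labels give 3 libraries of RM-HS, 6 of RM, 5 of HS and 6 of Sham, and the design text counts 19 libraries with 5 of RM, whereas the labels give 20. The labels do not spell out RM and HS, which are read here as rhabdomyolysis and haemorrhagic shock, with RM-HS as both injuries and Sham as the operated control. They give no strain, sex, age or time after injury. Whether the libraries came from different animals is not stated, so every p-value here reflects the scatter among these samples alone, and that scatter may be technical in part.

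Proximal tubule cells clear drugs, toxins and metabolites from blood in a pair of steps, uptake across the basolateral membrane and export across the apical brush border. Organic anions enter through OAT1 and OAT3, encoded by Slc22a6 and Slc22a8, in exchange for intracellular dicarboxylates, and organic cations enter through OCT2, encoded by Slc22a2, driven by the membrane potential. Apical export uses the proton exchanger MATE1, encoded by Slc47a1, and the ATP-driven pumps MRP2, MRP4 and P-glycoprotein, encoded by Abcc2, Abcc4 and Abcb1a, while URAT1, encoded by Slc22a12, takes urate back from the tubule fluid. Slc22a7 encodes OAT2, a further organic anion carrier of the same family.

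Promoters were in the sequence table for 7 of the 9 genes, from 250 bases before to 50 bases after the RefSeq start, in the GRCr8 build. Those of the 3 ATP-driven pumps are shown because the transporters called against Sham 1 and Sham 6 alone were these pumps. Each is printed on the strand of its gene, with matches to the motifs searched in capitals. Abcc2 lies at chr1:252613625-252613924 (+ strand), Abcb1a at chr4:26397599-26397898 (- strand) and Abcc4 at chr15:102181315-102181614 (- strand).
Abcc2: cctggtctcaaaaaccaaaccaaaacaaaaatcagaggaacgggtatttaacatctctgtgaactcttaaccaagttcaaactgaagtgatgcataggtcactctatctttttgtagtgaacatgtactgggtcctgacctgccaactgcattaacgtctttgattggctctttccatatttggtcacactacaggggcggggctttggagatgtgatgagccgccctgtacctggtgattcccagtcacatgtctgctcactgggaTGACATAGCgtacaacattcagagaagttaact
Abcb1a: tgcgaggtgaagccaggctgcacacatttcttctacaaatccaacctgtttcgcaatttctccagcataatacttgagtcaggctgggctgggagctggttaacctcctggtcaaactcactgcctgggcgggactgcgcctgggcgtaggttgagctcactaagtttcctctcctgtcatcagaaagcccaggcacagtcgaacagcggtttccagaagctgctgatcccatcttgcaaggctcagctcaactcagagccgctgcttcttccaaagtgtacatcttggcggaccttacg
Abcc4: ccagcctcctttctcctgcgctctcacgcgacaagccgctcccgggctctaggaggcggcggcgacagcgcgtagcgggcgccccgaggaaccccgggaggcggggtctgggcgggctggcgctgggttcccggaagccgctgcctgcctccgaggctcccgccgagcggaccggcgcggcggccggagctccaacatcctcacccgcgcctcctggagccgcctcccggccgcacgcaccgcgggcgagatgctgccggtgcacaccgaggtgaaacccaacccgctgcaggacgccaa
The motifs searched on both strands were CAAAGTCCA (the site of HNF4) and TGACNNNGC (the antioxidant response element bound by NRF2). A TATA box was searched for as TATAAA. In Abcc2 the antioxidant response element letters TGACATAGC began 17 bases after the start, and of the 7 promoters 1 held them. Of 33469 promoters of this length in the table, 12.1% held the antioxidant response element letters. CAAAGTCCA was in 0 of the 7 promoters, against 0.391% of all promoters, and TATAAA was in 0 of the 7, against 14.2%. A match is a description of the letters only, and variants of these motifs, including other forms of the TATA box, were not searched.

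Libraries held between 45047179 and 109940948 reads, of which 42.2% to 54.7% lay on 14 mitochondrial rows. Kidney was recognisable in every group, with Umod of the thick ascending limb and Slc5a2 of the early proximal tubule detected in all 4. The Sham libraries differed in the early proximal tubule, where the summed level of 7 marker genes was 229529 to 388153 normalized reads in RM-HS, 194416 to 298420 in RM and 198548 to 258513 in HS. In Sham it was 233807 in Sham 1 and 237492 in Sham 6, but 54444, 79719, 84420 and 94775 in Sham 2, 3, 4 and 5. Summed markers of the thick ascending limb were 134277 to 161674 in RM-HS, 88206 to 200567 in RM, 72366 to 124088 in HS and 177819 to 296585 in Sham. Those of the late proximal tubule overlapped in all groups, at 350136 to 524354 in RM-HS, 279308 to 415988 in RM, 326289 to 424913 in HS and 280415 to 435695 in Sham. Comparisons with Sham are therefore also given with Sham 1 and Sham 6 alone, a choice that rests on marker values measured in these same libraries and not on the labels. These 2 libraries resembled the injured ones in the early proximal tubule sum. Their thick ascending limb sums, 285616 and 264990, lay above every injured library, so that segment was not matched. Summed neutrophil markers were 7561 to 12620 in RM-HS, 5017 to 20508 in RM, 1929 to 8205 in HS and 897 to 4743 in Sham, and those of collecting duct principal cells were 8167 to 19511, 11445 to 37142, 13757 to 21395 and 32819 to 87831 in the same groups. The part of tissue sampling or cell makeup in any difference from Sham was not tested.

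Of the ATP-driven export pumps, Abcc2 was higher in every library of all 3 injuries than in any Sham library, Abcb1a likewise by a smaller factor, and Abcc4 in every HS library. The other transporters whose libraries did not overlap Sham were Slc22a8 in RM-HS, which was higher, and Slc22a7 and Slc22a2 in HS, which were lower. For Slc22a2 the gap was 1.8 normalized reads, within counting error. All 3 comparisons use the same Sham libraries, so they are not independent of each other. Values are read counts normalized by the authors, fold changes are differences of log2(value + 1) with standard errors from limma, and p-values are Benjamini-Hochberg adjusted over all rows tested. In bulk tissue, more cells that express a gene and more RNA per cell cannot be told apart.

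**Figure D1:**
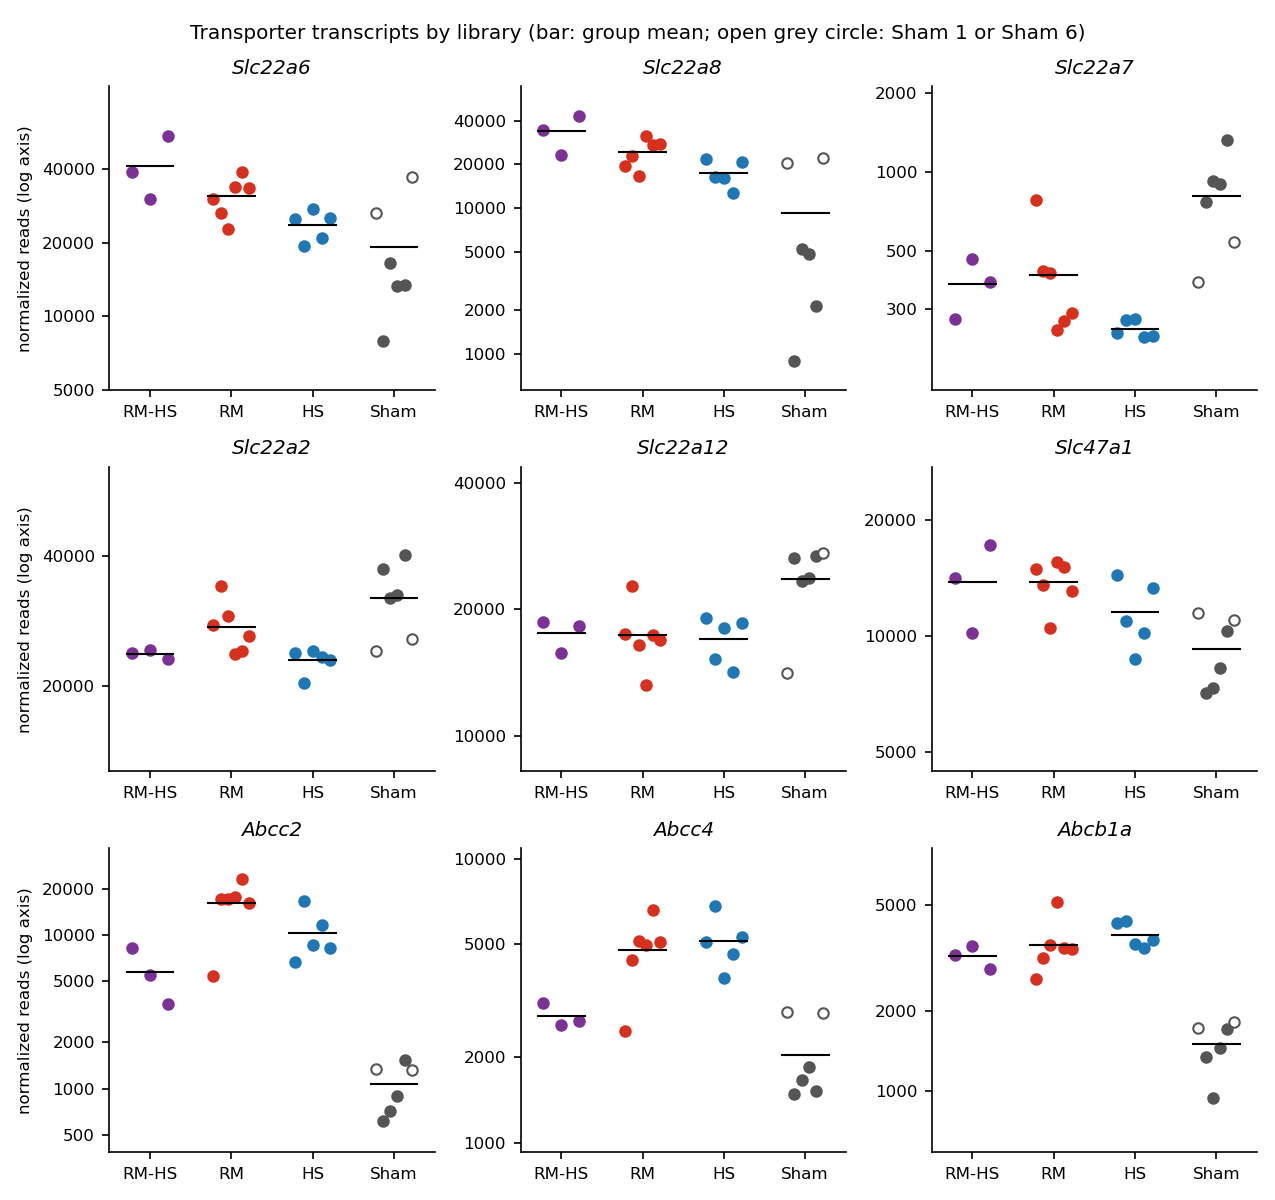
Normalized reads of the 9 transporters (y axes, log scale) in the RM-HS, RM, HS and Sham libraries (x axes), with 1 point per library and a bar at the group mean. Abcc2 lay above 3580 in every RM-HS, RM and HS library and at 1530 or below in every Sham library, whereas Slc22a8 in Sham divided into 2 libraries at 20505 and above and 4 at 5262 and below.

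Abcc2, which exports glutathione, glucuronide and other conjugates (GSRG0002214, rn6 chromosome 1, 263554426 to 263612560), was at 8264, 5476 and 3582 normalized reads in the 3 RM-HS libraries. In RM it was at 5430, 17208 and 23053 (lowest, median and highest of 6), and in HS at 6645, 16729, 8582, 11679 and 8242. The Sham libraries had it at 615, 1106 and 1530 (lowest, median and highest of 6), with 1345 in Sham 1 and 1314 in Sham 6. The groups did not overlap, and the lowest RM-HS, RM and HS libraries were 2.34, 3.55 and 4.34 times the highest Sham library. The log2 fold change was 2.43 ± 0.39 in RM-HS (limma adjusted p = 6.24e-05), 3.87 ± 0.32 in RM (limma adjusted p = 1.07e-08) and 3.28 ± 0.33 in HS (limma adjusted p = 5.35e-07), which as ratios are 5.39, 14.6 and 9.72. Against Sham 1 and Sham 6 alone it was 2.04 ± 0.48, 3.48 ± 0.43 and 2.89 ± 0.44 for RM-HS, RM and HS (limma adjusted p = 0.00559, 2.91e-05 and 0.000411). The call held in all 3 injuries under every alternative run, with log2 fold changes between 2.035 and 4.16.

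Abcb1a, P-glycoprotein, which exports bulky lipophilic and cationic drugs (GSRG0022650, rn6 chromosome 4, 22339829 to 22425381), was at 3250, 3511 and 2879 normalized reads in RM-HS. In RM it was at 2647, 3432 and 5128 (lowest, median and highest), and in HS at 4289, 4360, 3580, 3468 and 3705. In Sham it was at 945, 1589 and 1817 (lowest, median and highest), with 1726 in Sham 1 and 1817 in Sham 6. Here too no injured library overlapped Sham, the lowest being 1.58, 1.46 and 1.91 times the highest Sham library in RM-HS, RM and HS. On the log2 scale the change was 1.12 ± 0.18 in RM-HS (limma adjusted p = 7.96e-05), 1.25 ± 0.15 in RM (limma adjusted p = 1.22e-06) and 1.39 ± 0.16 in HS (limma adjusted p = 1.67e-06). With only Sham 1 and Sham 6 as controls it was 0.85 ± 0.19, 0.98 ± 0.17 and 1.13 ± 0.18 (limma adjusted p = 0.00426, 0.000524 and 0.000505). Among libraries whose name begins with R, where RM keeps only RM 1, the RM change was 0.85 (limma adjusted p = 0.0956).

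Abcb1a has a close paralog, Abcb1b, and how reads matching both were counted is not given in the sources used here. Abcb1b differed from Sham by 0.82 ± 0.40 in RM-HS (limma adjusted p = 0.104), by 0.59 ± 0.33 in RM (limma adjusted p = 0.136) and by 1.02 ± 0.34 in HS (limma adjusted p = 0.019). It did not pass against Sham 1 and Sham 6, at 0.56, 0.33 and 0.76 (limma adjusted p = 0.437, 0.607 and 0.24). P-glycoprotein is also made by endothelium, and the summed level of 6 endothelial markers was 6439 to 7208 in RM-HS, 7188 to 11162 in RM, 5937 to 6868 in HS and 7131 to 11395 in Sham. No injured library exceeded the highest Sham sum, and of the 6 markers 1 was higher and 2 lower in RM-HS, 1 and 1 in RM, and 1 and 4 in HS, or 1 and 3, 1 and 1, and 1 and 4 against Sham 1 and Sham 6. Abcc2 is also a liver gene, and the summed level of 6 liver markers was 3232 to 4832 in RM-HS, 2253 to 6419 in RM, 3135 to 6665 in HS and 2371 to 11015 in Sham. Alb, the liver's main secreted protein, did not exceed 214.6 normalized reads in any library and was at 0 in at least 1 RM and 1 Sham library. Of the 6 liver markers 2, Apob and Serpina1, were higher and 0 lower in each injury, with list medians of 2.40, 1.57 and 1.42 in RM-HS, RM and HS. Apob averaged 478 ± 364 normalized reads in RM-HS, 817 ± 757 in RM, 525.6 ± 248 in HS and 53.6 ± 67.7 in Sham. Serpina1 averaged 151 ± 41, 161 ± 89, 620 ± 99 and 47.4 ± 41.4 (SD, n = 3, 6, 5 and 6). With Sham 1 and Sham 6 alone, 1 of the 6 was higher in RM-HS, 2 in RM and 1 in HS. The part of the liver markers in the Abcc2 result was not tested, nor was that of the endothelial markers in the Abcb1a result.

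Abcc4, an exporter of cyclic nucleotides, urate and anionic drugs (GSRG0011799, rn6 chromosome 15, 103696544 to 103927603), was called higher in RM and HS against all 6 Sham libraries. It was at 3100, 2587 and 2689 normalized reads in RM-HS, at 2483, 5034 and 6591 (lowest, median and highest) in RM, and at 5088, 6811, 3798, 4622 and 5280 in HS. Among the Sham libraries it was at 1480, 1757 and 2892 (lowest, median and highest), with the 2 highest values, 2892 and 2855, in Sham 1 and Sham 6. Every HS library and 5 of 6 RM libraries lay above all Sham libraries, and RM-HS overlapped Sham. The log2 fold change was 0.50 ± 0.25 in RM-HS (limma adjusted p = 0.119), 1.23 ± 0.21 in RM (limma adjusted p = 6.28e-05) and 1.36 ± 0.22 in HS (limma adjusted p = 5.6e-05). Relative to Sham 1 and Sham 6 only HS passed, at 0.81 ± 0.26 (limma adjusted p = 0.0338). RM then had 0.68 ± 0.26 (limma adjusted p = 0.0543) and RM-HS had -0.05 ± 0.29, with a 95% interval of -0.66 to 0.56 (limma adjusted p = 0.926). In RM the change was 0.34 among libraries whose name begins with R (limma adjusted p = 0.647).

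Against all 6 Sham libraries, Slc22a8 was called higher in every injury and Slc22a6 in RM-HS and RM, but neither was called against Sham 1 and Sham 6. Slc22a8, which takes up sulfated and drug anions from blood (GSRG0002025, rn6 chromosome 1, 224800240 to 224819555), was at 34685, 23382 and 43164 normalized reads in RM-HS. It was at 16613, 25045 and 31386 (lowest, median and highest) in RM and at 21736, 16428, 16054, 12790 and 20809 in HS. In Sham it was at 20505 in Sham 1 and 22293 in Sham 6, against 901, 5262, 4860 and 2126 in Sham 2, 3, 4 and 5. Sham 1 and Sham 6 lay within the RM range and below the lowest RM-HS library, Sham 1 lay within the HS range and Sham 6 above it, and the other Sham libraries lay below every injured library. Its log2 fold change was 2.62 ± 0.67 in RM-HS (limma adjusted p = 0.00372), 2.15 ± 0.54 in RM (limma adjusted p = 0.00247) and 1.70 ± 0.57 in HS (limma adjusted p = 0.0194). Against Sham 1 and Sham 6 it was 0.61 ± 0.28, 0.15 ± 0.25 and -0.31 ± 0.25 in RM-HS, RM and HS (limma adjusted p = 0.11, 0.679 and 0.389). The HS call was also lost with edgeR on recovered reads, where the change was 0.94 (adjusted p = 0.162), with DESeq2, where it was 0.92 (adjusted p = 0.18), and without Sham 5, where it was 1.44 (limma adjusted p = 0.0501). A fit of HS and Sham alone lost it too, at 1.70 (limma adjusted p = 0.066), as did the libraries named R, at 1.75.

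Slc22a6, the classical carrier of p-aminohippurate (GSRG0002026, rn6 chromosome 1, 224824834 to 224833284), begins 5278 bases beyond the end of Slc22a8, and 5 of the 9 genes lie on chromosome 1. It was at 38772, 30097 and 54651 normalized reads in RM-HS, at 22808, 31803 and 38718 (lowest, median and highest) in RM and at 24964, 19440, 27351, 20833 and 25274 in HS. The Sham libraries had it at 26469 in Sham 1 and 37042 in Sham 6, against 7948, 16475, 13261 and 13445 in Sham 2, 3, 4 and 5. Its Sham libraries divided in the same way as those of Slc22a8, and the highest of them overlapped every injury. The log2 fold change was 1.25 ± 0.32 in RM-HS (limma adjusted p = 0.00419), 0.85 ± 0.26 in RM (limma adjusted p = 0.0101) and 0.47 ± 0.28 in HS (limma adjusted p = 0.171). Without Sham 6 the HS change was 0.70 (limma adjusted p = 0.0198). Set against Sham 1 and Sham 6 alone the values were 0.35 ± 0.24 in RM-HS, -0.04 ± 0.22 in RM and -0.42 ± 0.22 in HS, and none passed (limma adjusted p = 0.302, 0.901 and 0.175).

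**Figure D2:**
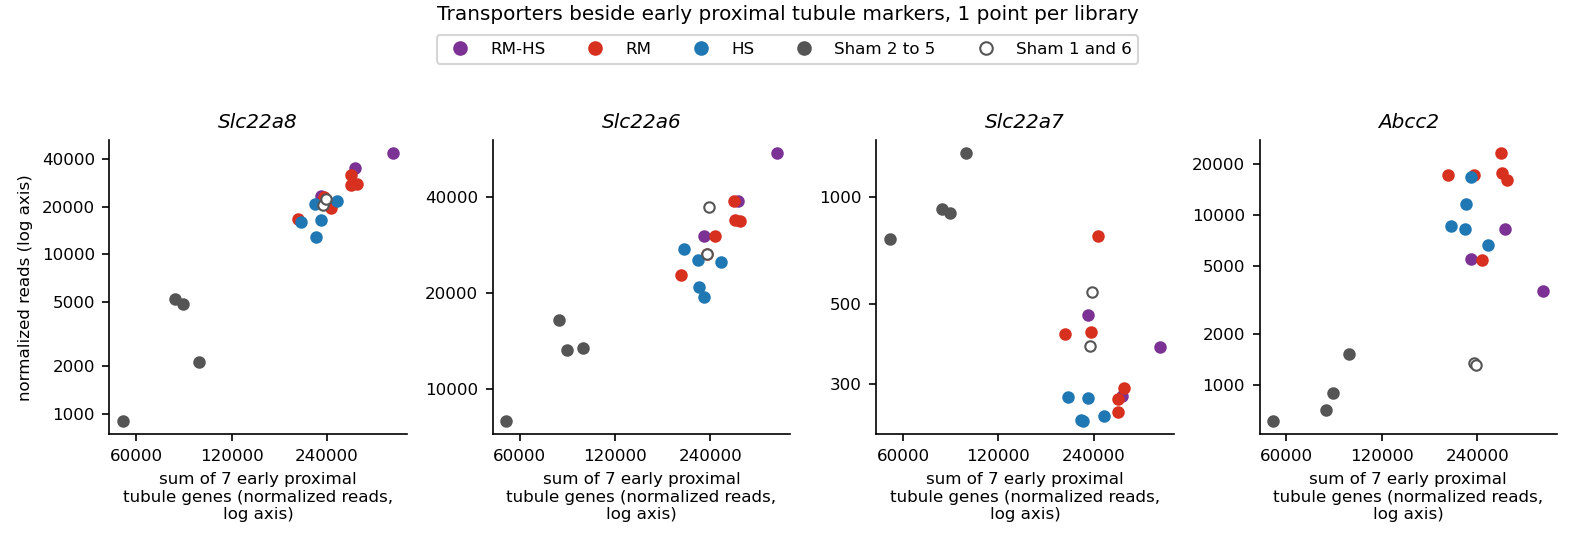
Normalized reads of Slc22a8, Slc22a6, Slc22a7 and Abcc2 (y axes, log scale) against the summed normalized reads of 7 early proximal tubule genes (x axes, log scale), with 1 point per RM-HS, RM, HS or Sham library. Sham 2 to 5 lie apart at marker sums of 54444 to 94775 with low Slc22a8 and Slc22a6, while Sham 1 and Sham 6 lie with the injured libraries for these genes and far below them for Abcc2.

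Slc22a7 went the other way (GSRG0032172, rn6 chromosome 9, 16925261 to 16931333). It was at 277, 467 and 381 normalized reads in RM-HS, at 251, 353 and 778 (lowest, median and highest) in RM and at 244, 273, 276, 236 and 237 in HS. In Sham it was at 381 in Sham 1 and 542 in Sham 6, against 764, 927, 901 and 1325 in Sham 2, 3, 4 and 5. Every HS library lay below all 6 Sham libraries, and RM-HS and RM overlapped Sham. On the log2 scale the change was -1.03 ± 0.33 in RM-HS (limma adjusted p = 0.0172), -1.002 ± 0.27 in RM (limma adjusted p = 0.00413) and -1.56 ± 0.28 in HS (limma adjusted p = 0.000179). Without RM-HS 1 the RM-HS change was -0.83 (limma adjusted p = 0.106). By comparison with Sham 1 and Sham 6 it was -0.31 ± 0.36, -0.29 ± 0.32 and -0.84 ± 0.33 in RM-HS, RM and HS (limma adjusted p = 0.553, 0.524 and 0.0722). The high RM value was RM 1, the only RM library whose name begins with R, and among such libraries the RM change was 0.06.

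Slc22a2, the uptake carrier of metformin, creatinine and other cations (GSRG0002587, rn6 chromosome 1, 48318017 to 48360219), had small fold changes. It was at 23877, 24311 and 23162 normalized reads in RM-HS, at 23757, 26882 and 34033 (lowest, median and highest) in RM and at 23927, 20310, 24089, 23408 and 23031 in HS. Among the Sham libraries it was at 24091 in Sham 1 and 25734 in Sham 6, against 37316, 31936, 32462 and 40203 in Sham 2, 3, 4 and 5. All HS libraries lay below all Sham libraries, the highest HS library, 24089.3, by 1.8 normalized reads below Sham 1, and RM-HS overlapped Sham only through RM-HS 2. The log2 fold change was -0.40 ± 0.14 in RM-HS (limma adjusted p = 0.0257), -0.21 ± 0.11 in RM (limma adjusted p = 0.137) and -0.46 ± 0.12 in HS (limma adjusted p = 0.00401). Against Sham 1 and Sham 6 the 95% intervals were -0.35 to 0.22 in RM-HS, -0.13 to 0.39 in RM and -0.38 to 0.14 in HS. The RM-HS call was lost without any 1 of RM-HS 1, RM-HS 2, RM-HS 3, Sham 2 or Sham 5, with changes of -0.42 to -0.33 (limma adjusted p between 0.0508 and 0.0788), and RM passed without Sham 1, at -0.28 (limma adjusted p = 0.0325).

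The other apical carriers had smaller fold changes than Abcc2 and Abcb1a. Slc22a12, the urate reabsorber (GSRG0004813, rn6 chromosome 1, 221910796 to 221917901), averaged 17548 ± 1592 normalized reads in RM-HS (SD, n = 3), 17351 ± 3088 in RM (n = 6), 17036 ± 2170 in HS (n = 5) and 23622 ± 4918 in Sham (n = 6). Its low Sham library was Sham 1, at 14138, while Sham 2 to 6 lay between 23373 and 27212, above every RM-HS, RM and HS library. Its log2 fold change was -0.40 ± 0.18 in RM-HS (limma adjusted p = 0.0757), -0.43 ± 0.14 in RM (limma adjusted p = 0.017) and -0.45 ± 0.15 in HS (limma adjusted p = 0.0203). With DESeq2 on recovered reads the RM-HS change passed, at -0.43 (adjusted p = 0.042), as it did with limma without Sham 1, at -0.54 (limma adjusted p = 0.00332). The HS call was lost without HS 2, at -0.41 (limma adjusted p = 0.0514), or HS 4, at -0.39 (limma adjusted p = 0.0618). Against Sham 1 and Sham 6, which differ from each other here, the changes were -0.16 ± 0.23, -0.20 ± 0.21 and -0.21 ± 0.21 in RM-HS, RM and HS, and none passed (limma adjusted p = 0.629, 0.493 and 0.487).

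Slc47a1, the exporter that completes cation secretion (GSRG0006474, rn6 chromosome 10, 47631426 to 47685389), was at 14137, 10156 and 17192 normalized reads in RM-HS, at 10492, 14237 and 15618 (lowest, median and highest) in RM and at 14417, 10949, 8724, 10163 and 13308 in HS. In Sham it was at 7112, 9274 and 11474 (lowest, median and highest), with 11474 in Sham 1 and 11009 in Sham 6. Above every Sham library lay 2 of 3 RM-HS, 5 of 6 RM and 2 of 5 HS libraries. The log2 fold change was 0.57 ± 0.19 in RM-HS (limma adjusted p = 0.0192), 0.59 ± 0.15 in RM (limma adjusted p = 0.00318) and 0.32 ± 0.16 in HS (limma adjusted p = 0.115). With Sham 1 and Sham 6 as the controls it was 0.27 ± 0.22, 0.28 ± 0.20 and 0.01 ± 0.20, and none passed (limma adjusted p = 0.397, 0.288 and 0.977). The RM-HS call was lost without RM-HS 1, at 0.54 (limma adjusted p = 0.0715), or RM-HS 3, at 0.40 (limma adjusted p = 0.146), and HS passed without HS 3, at 0.41 (limma adjusted p = 0.0497).

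Counted together, 5 of the 9 transporters were higher and 2 lower in RM-HS than in Sham, where 21.3% of all rows tested were higher and 21.0% lower. In RM, 6 were higher and 2 lower, against 26.2% of all rows higher and 26.8% lower. In HS, 4 were higher and 3 lower, against 23.3% of all rows higher and 23.2% lower. So many rows passed that a count of called transporters says little by itself. Libraries of the groups compared did not overlap for 3 transporters in RM-HS (32.5% of all rows), 2 in RM (25.7% of all rows) and 5 in HS (25.9% of all rows), of which 3 were higher and 2 lower. The 2 lower ones include Slc22a2, whose gap of 1.8 normalized reads was within counting error. The median log2 fold change of the 9 genes was 0.57 in RM-HS, 0.85 in RM and 0.47 in HS, beside -0.03, -0.04 and -0.03 over all rows. When Sham 1 and Sham 6 served as controls alone, 2 of 9 were called higher in RM-HS (15.0% of all rows), 2 in RM (18.0% of all rows) and 3 in HS (14.6% of all rows), and 0 were called lower in each by limma, where 12.3%, 14.9% and 11.1% of all rows were lower in RM-HS, RM and HS. At an unadjusted p under 0.05, 1 was lower in HS, 0 in RM-HS and 0 in RM, with no share of all rows given. Neither edgeR nor DESeq2 was run with these controls. The medians were then 0.27, 0.15 and -0.12, beside -0.02, -0.03 and -0.01 over all rows. The genes called were Abcc2 and Abcb1a in all 3 injuries and Abcc4 in HS, and all were ATP-driven pumps. With the letter that begins the library name as a covariate, the RM calls of Slc22a6 (0.87, limma adjusted p = 0.0993), Slc22a8 (2.11, limma adjusted p = 0.0541), Slc22a7 (-0.49, limma adjusted p = 0.328) and Slc22a12 (-0.37, limma adjusted p = 0.198) were lost, as was the HS call of Slc22a12 (-0.42, limma adjusted p = 0.0606).

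**Figure D3:**
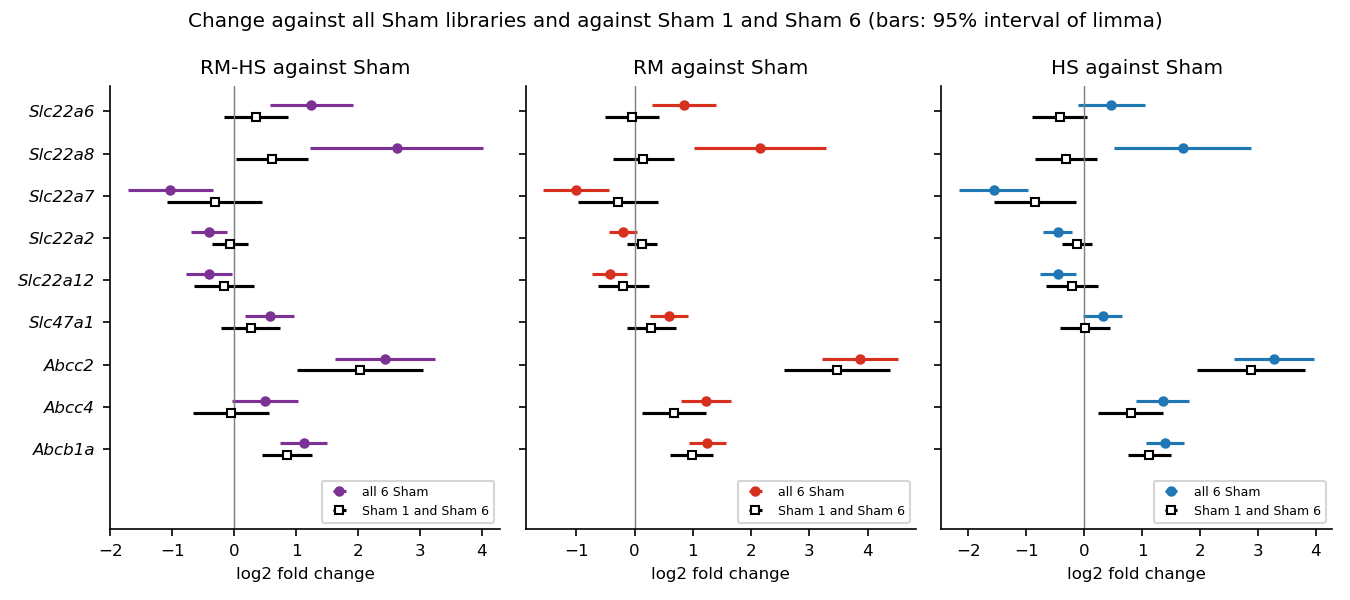
Log2 fold change (x axes) of each transporter (rows) in RM-HS, RM and HS against all 6 Sham libraries (filled) and against Sham 1 and Sham 6 alone (open squares), with bars for the 95% interval of limma. Abcc2 stays above 2 in every panel, whereas Slc22a8 lies at 2.62, 2.15 and 1.70 against all Sham libraries and at 0.61, 0.15 and -0.31 against Sham 1 and Sham 6.

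Between the injuries, Abcc4 was lower in RM-HS than in HS, and no other transporter passed in any of the 3 comparisons with limma. Abcc4 in RM-HS against HS stood at -0.85 ± 0.26 on the log2 scale (limma adjusted p = 0.027), and the groups did not overlap, at 2587 to 3100 in RM-HS and 3798 to 6811 in HS. It was the only transporter to pass in that comparison, where 20.6% of all rows passed. The call was lost without RM-HS 2 (limma adjusted p = 0.0843), without RM-HS 3 (limma adjusted p = 0.0834), without HS 2 (limma adjusted p = 0.065) with the letter that begins the library name as a covariate (limma adjusted p = 0.0925) and among libraries named R (limma adjusted p = 0.0733), at changes of -0.87 to -0.69. RM-HS and HS also did not overlap for Slc22a6, Slc22a8 and Slc22a7, all higher in RM-HS, so 4 of 9 transporters did not overlap, against 24.9% of all rows. For Slc22a7 this rested on 276.56 normalized reads (254 reads) in RM-HS 1 beside 276 (306 reads) in HS 3, a gap within counting error. Slc22a6 was higher in RM-HS by 0.77 ± 0.33 (limma adjusted p = 0.104), Slc22a8 by 0.92 ± 0.69 (limma adjusted p = 0.368) and Slc22a7 by 0.53 ± 0.34 (limma adjusted p = 0.289). Their spread in that fit includes the divided Sham libraries, and in a fit of RM-HS and HS alone Slc22a6 (limma adjusted p = 0.0249) and Slc22a8 (limma adjusted p = 0.0231) passed at the same fold changes. The early proximal tubule sum was 229529 to 388153 in RM-HS and 198548 to 258513 in HS, overlapping ranges. In the fit that includes the Sham libraries, 1 of the 7 genes of that sum was called higher and 6 did not pass. The median log2 fold change of the 7 was 0.53, beside 0.006 over all rows. Slc34a1 and Slc5a2 were higher in every RM-HS library than in any HS library, while Slc7a7 and Slc6a19 overlapped. The part of these markers in the differences of Slc22a6, Slc22a8 and Slc22a7 was not tested.

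Against RM, Abcc2 in RM-HS had a log2 fold change of -1.44 ± 0.39 with a 95% interval of -2.25 to -0.63 (limma adjusted p = 0.0767), and Abcc4 had -0.72 ± 0.25 with an interval of -1.25 to -0.19 (limma adjusted p = 0.169). With limma 0 of the 9 transporters passed, where 1.08% of all rows did. At an unadjusted p under 0.05 there were 2, and the share of all rows at that cut-off is not given. With edgeR 0 transporters and 129 rows passed, and with DESeq2 1 transporter and 505 rows. RM-HS and RM were free of overlap for 0 transporters, against 7.76% of all rows. The overlap in both pumps came from RM 1, which had 5430 normalized reads of Abcc2 and 2483 of Abcc4, while RM 2 to 6 lay between 16078 and 23053 for Abcc2 and between 4393 and 6591 for Abcc4. Without RM 1 both passed, Abcc2 at -1.73 (limma adjusted p = 0.00863) and Abcc4 at -0.90 (limma adjusted p = 0.0305), and with DESeq2 on recovered reads Abcc2 passed with all libraries, at -1.48 (adjusted p = 0.00415). RM 1 is also the only RM library whose name begins with R, as do those of all RM-HS and Sham libraries and of 3 HS libraries, and against it alone the RM-HS change of Abcc2 was 0.01 and that of Abcc4 was 0.17. The labels do not say what the letter means, and between RM-HS and RM its part cannot be told apart from that of the single library. In HS, which holds both letters, the 3 R libraries had 6645, 16729 and 8582 normalized reads of Abcc2 and 5088, 6811 and 3798 of Abcc4. The 2 S libraries of HS lay within those ranges, at 11679 and 8242 for Abcc2 and 4622 and 5280 for Abcc4. The other 7 transporters differed between RM-HS and RM by -0.20 to 0.47 on the log2 scale (limma adjusted p between 0.514 and 0.981).

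**Figure D4:**
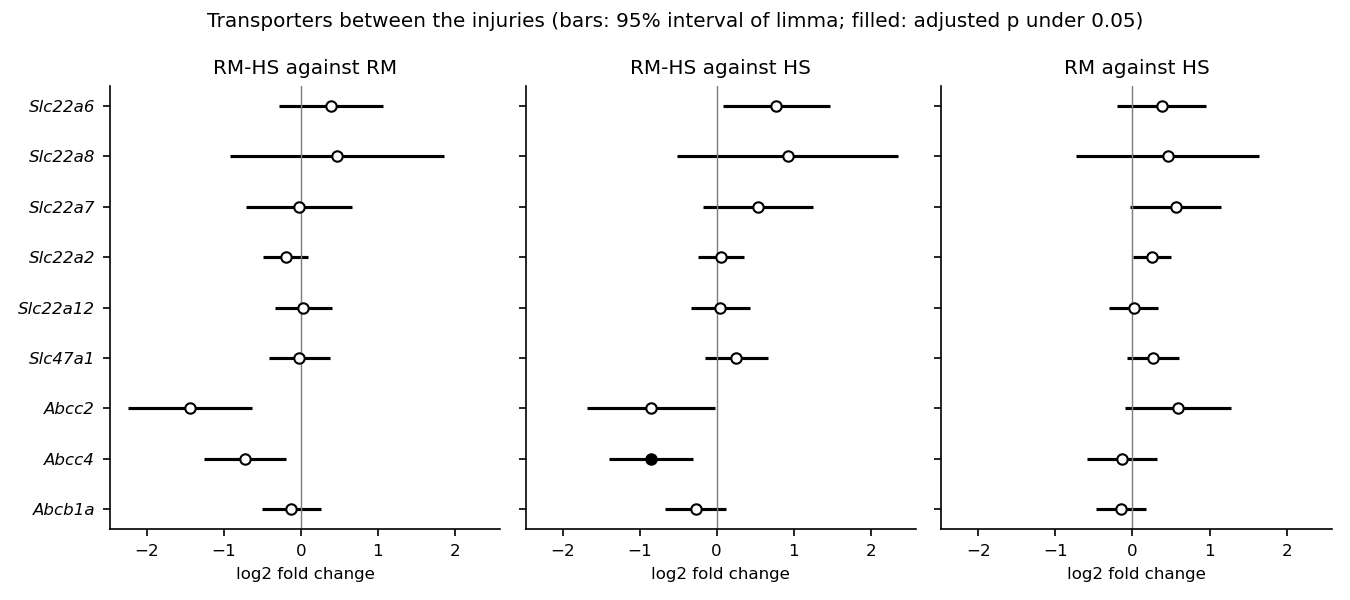
Log2 fold change (x axes) of each transporter (rows) in the comparisons RM-HS over RM, RM-HS over HS and RM over HS, with bars for the 95% interval of limma and a filled point where the adjusted p was under 0.05. The filled point is Abcc4 at -0.85 in RM-HS against HS, and Abcc2 in RM-HS against RM lies at -1.44 with an interval of -2.25 to -0.63.

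Between RM and HS, 0 of the 9 transporters passed with limma, where 23.8% of all rows did (limma adjusted p between 0.139 and 0.951). At an unadjusted p under 0.05 there was 1, with no share of all rows given for that cut-off. Both edgeR and DESeq2 passed 0 transporters, where 3705 and 4342 rows passed. Abcc2 had the largest difference in size, averaging 16098 ± 5778 normalized reads in RM (SD, n = 6) and 10375 ± 3992 in HS (n = 5), and its log2 fold change was 0.59 ± 0.33 (limma adjusted p = 0.21). Without RM 1 it was 0.88 (limma adjusted p = 0.0247), and among libraries whose name begins with R, RM 1 against 3 HS libraries, it was -0.86. Abcb1a differed by -0.15 ± 0.16, with a 95% interval of -0.47 to 0.18, and Slc22a12 by 0.02 ± 0.15, with an interval of -0.30 to 0.33.

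The other genes of the pathway did not move as one. Counts in each gene list, here and above, stand beside the shares of all rows tested. Against all 6 Sham libraries, 21.3% of rows were higher and 21.0% lower in RM-HS, 26.2% and 26.8% in RM, and 23.3% and 23.2% in HS. With Sham 1 and Sham 6 these were 15.0% and 12.3%, 18.0% and 14.9%, and 14.6% and 11.1%. As for the transporters, a count near these shares says little by itself. Of 17 further organic anion and urate carriers listed, 14 were tested, of which 5 were higher and 6 lower in RM-HS, 4 and 5 in RM, and 4 and 5 in HS, with median log2 fold changes of -0.36, -0.08 and -0.14. Phosphate and urate carriers of the Slc17 family were among those that rose, with Slc17a2 at 1.25 ± 0.15 in RM-HS, 1.26 ± 0.12 in RM and 0.70 ± 0.12 in HS (limma adjusted p = 2.55e-06, 7.94e-08 and 0.000163). Slc17a1 rose as well, by 0.87 ± 0.16, 0.71 ± 0.13 and 0.71 ± 0.14 (limma adjusted p = 0.000277, 0.000164 and 0.000348), and both genes also passed against Sham 1 and Sham 6 in each injury. Slco1a6, an organic anion transporting polypeptide, fell, at -1.02 ± 0.19, -0.69 ± 0.16 and -0.89 ± 0.16 in RM-HS, RM and HS (limma adjusted p = 0.000275, 0.000935 and 0.000189). Against Sham 1 and Sham 6 it passed in RM-HS only, at -0.66 (limma adjusted p = 0.0273). With those controls 4, 4 and 3 of the 14 were higher and 4, 3 and 1 lower in RM-HS, RM and HS.

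Of 11 further organic cation and carnitine carriers listed, 10 were tested, of which 4 were higher and 0 lower in RM-HS, 4 and 1 in RM, and 3 and 2 in HS, with medians of 0.21, 0.21 and 0.20. Slc22a23, a family member with no established substrate, was higher by 1.84 ± 0.51, 1.84 ± 0.42 and 1.80 ± 0.44 in RM-HS, RM and HS (limma adjusted p = 0.00685, 0.00103 and 0.00226). With only Sham 1 and Sham 6 as controls it was at 0.13, 0.13 and 0.09 and did not pass (limma adjusted p = 0.748, 0.698 and 0.816). Slc22a4, the carrier of ergothioneine, was higher by 0.62 ± 0.17, 0.55 ± 0.14 and 0.38 ± 0.14 (limma adjusted p = 0.00598, 0.00236 and 0.0361) and did not pass against those controls either. Those controls left 1 of the 10 higher in each injury and 1 lower in HS.

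Of 9 further ABC efflux pumps, 0 were higher and 2 lower in RM-HS, 2 and 1 in RM, and 2 and 2 in HS, with median log2 fold changes of -0.08, 0.08 and 0.19, and 7, 6 and 5 did not pass. With Sham 1 and Sham 6 as controls, 0 were higher and 1 lower in RM-HS, 0 and 1 in RM, and 1 and 2 in HS. Abcc3, a basolateral conjugate exporter, rose in HS by 0.95 ± 0.15 (limma adjusted p = 4.92e-05) and in RM by 0.52 ± 0.14 (limma adjusted p = 0.00476), and RM-HS had 0.36 ± 0.18 (limma adjusted p = 0.105). Relative to Sham 1 and Sham 6 its HS change of 0.86 passed (limma adjusted p = 0.00864). Abcc10 fell in all 3, at -0.76 ± 0.18 in RM-HS, -0.83 ± 0.15 in RM and -0.58 ± 0.16 in HS (limma adjusted p = 0.00242, 0.000123 and 0.00493), and passed against Sham 1 and Sham 6 in each.

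Among 7 genes of the driving force and the exchange partners, 2 were higher and 1 lower in RM-HS, 2 and 3 in RM, and 2 and 4 in HS, with medians of -0.08, -0.27 and -0.37. Set against Sham 1 and Sham 6, 1 was higher and 3 lower in HS, and 0 passed with limma in RM-HS and RM. Slc13a3, which brings in the dicarboxylates that OAT1 and OAT3 exchange, was higher by 0.96 ± 0.21, 0.65 ± 0.17 and 0.55 ± 0.18 in RM-HS, RM and HS (limma adjusted p = 0.00102, 0.003 and 0.015), and did not pass against Sham 1 and Sham 6. Slc13a2, its apical relative, had -0.37 ± 0.28 in RM-HS and -0.27 ± 0.23 in RM and fell in HS, at -1.39 ± 0.24 (limma adjusted p = 0.000101), also against Sham 1 and Sham 6, at -1.83 (limma adjusted p = 0.000757).

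Of 11 scaffold and transcription factor genes, 4 were higher and 3 lower in RM-HS, 4 and 4 in RM, and 2 and 2 in HS, with medians of 0.13, 0.19 and -0.12, or 1 and 2, 1 and 3, and 0 and 2 against Sham 1 and Sham 6. Nfe2l2, which encodes NRF2, rose by 0.81 ± 0.10 in RM-HS, 1.04 ± 0.09 in RM and 0.30 ± 0.09 in HS (limma adjusted p = 7.49e-06, 1.21e-08 and 0.00992), and the HS change did not pass against Sham 1 and Sham 6. Pdzk1, a scaffold that binds apical transporters including URAT1, rose by 0.74 ± 0.17 in RM-HS and 0.70 ± 0.14 in RM (limma adjusted p = 0.00154 and 0.000259), was at -0.17 ± 0.14 in HS (limma adjusted p = 0.347), and did not pass against Sham 1 and Sham 6. The scaffold gene Slc9a3r2 fell in RM-HS, at -0.95 ± 0.23 (limma adjusted p = 0.00239), and in RM, at -0.48 ± 0.19 (limma adjusted p = 0.0374), and had -0.37 ± 0.20 in HS (limma adjusted p = 0.126). It passed in all 3 injuries against Sham 1 and Sham 6, at -1.30, -0.83 and -0.72 (limma adjusted p = 0.0014, 0.00972 and 0.0286).

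Of 8 antioxidant genes known as NRF2 targets, as Abcc2 is too, 6 rose and 2 fell in RM-HS, 7 rose and 0 fell in RM, and 5 rose and 2 fell in HS, with medians of 1.71, 2.50 and 1.14. Relative to Sham 1 and Sham 6, 6 rose and 1 fell in RM-HS, 7 rose in RM and 4 rose in HS. Srxn1, sulfiredoxin, rose by 4.75 ± 0.34, 5.51 ± 0.28 and 2.86 ± 0.29 (limma adjusted p = 7.62e-09, 2.18e-11 and 5.77e-07), and Txnrd1, thioredoxin reductase, by 2.42 ± 0.22, 2.88 ± 0.18 and 1.56 ± 0.19 (limma adjusted p = 1.81e-07, 4.37e-10 and 3.91e-06), both against Sham 1 and Sham 6 as well. Beside these, Abcc2 had 2.43, 3.87 and 3.28. RM 1, low in Abcc2 and Abcc4, had an NRF2 target sum of 392528 normalized reads, against 510081 to 554696 in the other RM libraries. The sum was 215167 to 351648 in RM-HS, 163517 to 233418 in HS and 219689 to 338088 in Sham. It is weighted to abundant genes such as Gclm, at means of 43220 in RM-HS, 82660 in RM, 40890 in HS and 64409 in Sham. The HS sums overlapped those of Sham or lay below them, while Abcc2 was higher in every HS library than in any Sham library. The part of NRF2 in the levels of Abcc2 and Abcc4 was not tested. Tubular injury markers rose in 6 of 8 genes in RM-HS and in 5 of 8 in RM and in HS, and 0 fell, with medians of 1.34, 1.38 and 1.12, and against Sham 1 and Sham 6 they rose in 7, 6 and 6. Havcr1, kidney injury molecule 1, rose by 6.03 ± 0.71, 5.01 ± 0.58 and 6.63 ± 0.61 in RM-HS, RM and HS (limma adjusted p = 2.81e-06, 8.38e-07 and 2.03e-07). It rose by 7.25, 6.23 and 7.85 against Sham 1 and Sham 6 (limma adjusted p = 2.89e-05, 2.46e-05 and 1.83e-05).

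The genes whose profile over the 20 libraries was most like each transporter were ranked by the root mean square difference of mean-centred log2 values among 11165 genes. For Slc22a6 these were Uap1l1, the proximal tubule phosphate transporter Slc34a1 and Prodh2, at 0.18, 0.20 and 0.24. For Slc22a8 the nearest were Spink1l and the amino acid transporter Slc7a8, at 0.30 and 0.35. The nearest genes to Abcc2 were Csmd1, the glucose transporter Slc2a2 and Il17rb, at 0.54, 0.54 and 0.63, farther than for any other transporter, beside a spread of Abcc2 around its own mean of 1.69. That spread was smaller in the other transporters, such as 0.26 for Slc22a2 and 0.31 for Slc22a12, and distances grow with it. They therefore do not rank how well each profile was matched. Nearest to Abcb1a were Sdcbp, the p53 target Ccng1 and Tmem120a, at 0.19, 0.24 and 0.25, and nearest to Abcc4 was Megf9, at 0.22. The nearest genes to Slc22a7, Slc22a2, Slc22a12 and Slc47a1 were Isyna1 at 0.30, the amino acid transporter Slc6a18 at 0.12, the gamma-glutamyltransferase gene Ggt1 at 0.15 and Ddah1 at 0.13. All these distances share the libraries, so the division of the Sham libraries enters each of them.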

How the data were processed

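Frozen rat kidney RNA was made into stranded mRNA libraries and read from both ends, per the labels' protocols. The submitters' processing notes name FastQC 0.11.2, Picard 1.119, SAMtools 1.0, STAR, the rn6 build, featureCounts of Subread 1.5.0 and DESeq2. The signal values deposited by the authors are normalized read counts, per the same notes, and dividing out each library's size factor recovered whole reads, since 100% of the results fell within 0.1 of an integer. How reads were aligned and counted in detail is not given in the sources used here. Depth per library was 45047179 to 109940948 reads, and counting error is largest for Slc22a7, which had 148 to 306 reads in HS, where it is not small beside the spread between libraries (CV 7.8%).

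Libraries were grouped by their labels, and replicate numbers follow accession order. Tests were run on the 15954 rows that reached 10 in 3 or more libraries. R 4.3.3 and limma 3.58.1 fitted 4 group means together to log2(value + 1), with the prior variance following the mean, and passing means a Benjamini-Hochberg adjusted p under 0.05. The procedure was tested on simulated data. Alternatives were a pseudocount of 8, no filter, TMM scaling, recovered reads tested with edgeR 4.0.16 and with DESeq2 1.42.0, fits of only the groups compared, a term for the letter, R or S, that begins the library name, only the libraries named R, Sham 1 and Sham 6 alone as controls, and leaving out each library. The members and gene lists were chosen with earlier results of these data known. All members are named, up to 4 genes of a list by smallest adjusted p, and up to 3 genes by likeness among those with a mean of at least 50. A few genes these rules would name are not reported here, and others that the same rule names were described in their place. Promoters are RefSeq's (GRCr8), and gene coordinates are those of the deposited table.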

Additional observations from a re-analysis of the deposited data

Results flagged for a closer look

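Of 27 sets of 1 transporter in 1 group with 4 to 10 libraries, 4 held a library far from the others, and chance flags about 1 in 20. Slc22a7 was at 778 normalized reads in RM 1, while the other RM libraries lay between 251 and 419, and the gap was 0.680 of the range. Abcb1a was at 5128 in RM 4, with the other RM libraries at 2647 to 3555 and a gap of 0.634 of the range. Slc22a2 was at 20310 in HS 2, with the other HS libraries at 23031 to 24089 and a gap of 0.720 of the range. Slc22a12 was at 14138 in Sham 1, with the other Sham libraries at 23373 to 27212 and a gap of 0.706 of the range.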

How the results depend on the processing

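Of 54 transporter results, 23 passed, and 6 of these held under every alternative, namely Abcc2 in all 3 injuries, Abcb1a in RM-HS and HS, and Abcc4 in HS. TMM scaling, a pseudocount of 8 and no filter changed none of the 54. With Sham 1 and Sham 6 as controls, transporters passing numbered 2 in RM-HS, 2 in RM and 3 in HS, against 7, 8 and 7, and rows passing 4347, 5250 and 4105, against 6749, 8455 and 7410. The signs then turned for Slc22a6 in RM (-0.041) and HS (-0.42), Slc22a8 in HS (-0.31), Slc22a2 in RM (0.13) and Abcc4 in RM-HS (-0.046). With the name's letter as covariate, 4551 rows and 4 transporters passed in RM, and 2292 rows and 0 transporters in RM-HS against HS. In RM-HS against RM 0 rows passed with that covariate, and Slc22a12 there turned to -0.028, against 0.03 without it. Among libraries named R, rows passing were 766 in RM, 0 in RM-HS against RM, 1203 in RM-HS against HS and 195 in RM against HS. Without that limit the last 3 were 173, 3287 and 3791. Transporters passing among them were 1 in RM and 0 in RM-HS against HS. RM is then RM 1 alone, assumed to vary like the other groups, and signs turned for Slc22a7 in RM (0.057), for Abcc2 (0.0059), Abcc4 (0.17) and Abcb1a (0.28) in RM-HS against RM, and for Abcc2 in RM against HS (-0.86). DESeq2 gave 505 rows and 1 transporter in RM-HS against RM, and a fit of only those groups 42 rows. The fit of RM-HS and HS alone gave 2861 rows and 3 transporters. Fits of only the groups compared and of the libraries named R hold fewer samples, and the cause of any of these changes was not tested.

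Leaving out 1 library gave 4 to 8 transporters in RM-HS against Sham, where 5051 to 6842 of 15954 rows passed. It gave 0 to 2 transporters in RM-HS against RM (21 to 480 rows) and 0 to 1 in RM-HS against HS (2015 to 3289 rows). RM against HS had 0 to 1 (3026 to 3712 rows). Small differences that turned were in RM-HS against RM Slc22a7 (-0.20 to 0.19), Slc22a12 (-0.045 to 0.11) and Slc47a1 (-0.19 to 0.19), in RM-HS against HS Slc22a12 (-0.015 to 0.13), and in RM against HS Abcc4 (-0.24 to 0.047) and Slc22a12 (-0.064 to 0.093). No paired analysis was possible because replicate numbers follow accession order only.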
